A study of Homo sapiens with 6 samples.

Results

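The simple keratins KRT7, KRT8, KRT18 and KRT19 and the desmosome genes DSP, JUP, PKP2, PKP3, DSG2 and DSC2 were followed through 6 RNA-seq libraries of HEC-1B, an established line from a human endometrial cancer. The 10 genes were taken by symbol. All 10 are among the 23284 symbols listed in each library, and all 10 passed the filter on low values that left 12135 genes for testing (at least 1 FPKM in at least 2 libraries). FPKM counts fragments per kilobase of a transcript relative to the library's depth, so levels can be compared between genes. Each of 3 groups holds 2 libraries. The first group carries the labels high ALDH potential and ALDH-high accel and is called high-potential accelerated here. The second is HEC-1B with the label ALDH-high accel alone (plain accelerated), and the third is HEC-1B labelled ALDH-high to low (high-to-low). The series asks how expression differs with and without acceleration of the passage from an ALDH1A1-low to an ALDH1A1-high state, where ALDH1A1 is an aldehyde dehydrogenase and the populations were told apart by flow cytometry. All libraries share the 1 cell line. No label names a vector, a clone, a culture or a time, so p-values reflect only how far these libraries spread, and that spread may be technical.

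Keratins are intermediate filament proteins of epithelial cells. A filament is built from equal parts of a type II keratin (KRT7, KRT8) and a type I keratin (KRT18, KRT19), and the KRT8 and KRT18 pair is the basic set of simple, single-layered epithelia such as the endometrial glands. Desmosomes anchor these filaments at cell contacts: the cadherins desmoglein (DSG2) and desmocollin (DSC2) span the membrane, plakoglobin (JUP) and the plakophilins (PKP2, PKP3) bind their tails, and desmoplakin (DSP) ties the plaque to the keratins. KRT7, KRT8, KRT18 and PKP2 lie on chromosome 12, KRT19 and JUP on 17, DSG2 and DSC2 on 18, PKP3 on 11 and DSP on 6.

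The promoters of DSC2, DSG2 and DSP are shown because these membrane and plaque genes of 1 structure were each lower in both high-potential libraries than in the other 4. RefSeq's table (GRCh38.p14) held a promoter for 5 of the 10 members. Each sequence holds the 250 bases before the annotated start, 5′ to 3′ in the direction of the gene; for DSC2 it is the more upstream of its listed starts. The positions are chr18:31102422-31102671 on the minus strand for DSC2, chr18:31497927-31498176 on the plus strand for DSG2 and chr6:7541421-7541670 on the plus strand for DSP. Capitals mark matches, on either strand, to the GC box GGGCGG or to CACCTG, an E-box of the kind bound by ZEB and Snail factors; adjacent or overlapping matches share a stretch of capitals.
DSC2: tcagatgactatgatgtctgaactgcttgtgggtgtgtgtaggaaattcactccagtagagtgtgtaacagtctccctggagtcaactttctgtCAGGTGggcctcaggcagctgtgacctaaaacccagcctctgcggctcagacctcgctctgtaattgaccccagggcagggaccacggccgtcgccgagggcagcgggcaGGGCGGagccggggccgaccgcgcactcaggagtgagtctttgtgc
DSG2: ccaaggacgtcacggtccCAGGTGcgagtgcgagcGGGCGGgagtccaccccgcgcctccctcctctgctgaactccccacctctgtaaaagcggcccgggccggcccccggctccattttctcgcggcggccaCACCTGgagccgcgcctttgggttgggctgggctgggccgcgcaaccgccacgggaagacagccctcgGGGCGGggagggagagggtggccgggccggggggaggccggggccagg
DSP: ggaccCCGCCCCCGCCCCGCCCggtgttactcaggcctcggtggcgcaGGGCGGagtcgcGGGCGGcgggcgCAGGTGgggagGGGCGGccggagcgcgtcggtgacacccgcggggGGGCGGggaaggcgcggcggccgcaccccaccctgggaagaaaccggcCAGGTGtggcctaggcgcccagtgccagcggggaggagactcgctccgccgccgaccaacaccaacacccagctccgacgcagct
DSC2 has 1 GC box and 1 E-box match, DSG2 has 2 of each, and DSP has 7 GC boxes and 2 E-boxes. The window at the other listed DSC2 start has 2 GC boxes and no E-box. JUP, which was not lower in both high-potential libraries, has 2 listed windows. The first holds 2 GC boxes and no E-box, and the second holds 2 E-boxes and no GC box. KRT8, like DSC2, DSG2 and DSP, was lower in both high-potential libraries. The window listed for KRT8 lies at an upstream start and holds neither motif. Of 35116 promoters of this length, 42.6% hold the GC box and 17.5% the E-box. No match to the AP-1 site TGACTCA (4.2% of promoters) or to TATAAA (10.7%) was in these windows. GC content was 59.6% in the DSC2 promoter, 75.2% in DSG2 and 78.0% in DSP. Which start site the cells use was not measured, and a match describes letters only.

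In each library 14786 to 15386 genes were above 0 FPKM. Depth relative to high-potential replicate 1, recovered from low values, was 0.807 to 1.07, so that a single fragment on 1 kilobase corresponds to about 0.0929 to 0.123 FPKM. For high-to-low replicate 2 single-transcript genes alone gave 0.21 FPKM, against 0.106 from the relative depth. The fragment numbers below rest on the relative depth. ALDH1A1 was 352.5 and 303.6 FPKM in the high-potential group and 28.4 and 9.44 in the high-to-low group, whereas the plain accelerated libraries lay far from each other at 26.7 and 316.9. Of 8 epithelial markers, the members KRT8 and KRT18 were high in all 6 libraries, as was PAX8 (123.1 to 188.9 FPKM). EPCAM was 3.49 and 2.16 FPKM in the high-potential group and 4.43 to 10.6 in the other 4. CLDN7 was 7.51 and 3.47 FPKM against 8.51 to 18.9 in the same order. CLDN4 was 3.47 to 52.5 FPKM and MUC1 0.156 to 1.09, but E-cadherin (CDH1) stayed at or below 0.0868 FPKM. Of 10 squamous markers, 7 were listed at 0 in all libraries, among them KRT5, KRT14 and IVL, and KRT10 alone passed the filter. Endothelial markers summed to 0.117 to 1.07 FPKM and leukocyte markers to 0.749 to 2.40. Of 8 fibroblast markers only THY1 reached 1 FPKM in any library (8.04 to 313.9), while DCN, COL3A1 and POSTN were at 0 throughout.

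Measured against both other groups, the high-potential cells had less KRT8 and DSC2, with mean FPKM 2.07-fold and 5.30-fold lower (n = 2 against 4), and their KRT7 values were the highest of the series. The libraries overlapped between all groups for KRT18, the most abundant member, and for PKP3. In these bulk libraries fewer cells of a type and less RNA per cell cannot be told apart. Fitted by group alone, no member passed limma's adjusted threshold of 0.05 in any planned comparison. The counts were 0 of 10 between the high-potential and plain accelerated groups, where 0.494% of all 12135 genes passed, and 0 of 10 between the high-potential and high-to-low groups, where 0.799% passed. They were also 0 of 10 between the plain accelerated and high-to-low groups (0.0165% of all genes) and 0 of 10 for the mean of both accelerated groups against high-to-low (0.0659%). At an unadjusted limma p under 0.05, 6 members passed against plain accelerated (KRT7, KRT8, DSP, PKP2, DSG2 and DSC2), as did 14.3% of all genes. In the same way 4 passed between high-potential and high-to-low (KRT7, KRT8, DSP and DSC2; 18.4% of all genes), 0 between plain accelerated and high-to-low (0.972%), and 2 for both accelerated groups against high-to-low (KRT8 and DSC2; 9.25%).

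The groups share replicate numbers, and a fit with the number as a block changed the calls of 2 members in the planned comparisons. With the block KRT8 passed against plain accelerated (limma adjusted p = 0.0264) and against high-to-low (limma adjusted p = 0.0211), and so did DSC2 (limma adjusted p = 0.0173 and 0.0163). Those are 2 of 10 members in each comparison, where the block fit called 4.5% and 7.78% of all genes. With the block 0 of 10 members passed between plain accelerated and high-to-low (0.0165% of all genes) and 0 of 10 for both accelerated groups against high-to-low (0.14%). The labels do not say what the numbers share.

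**Figure D1:**
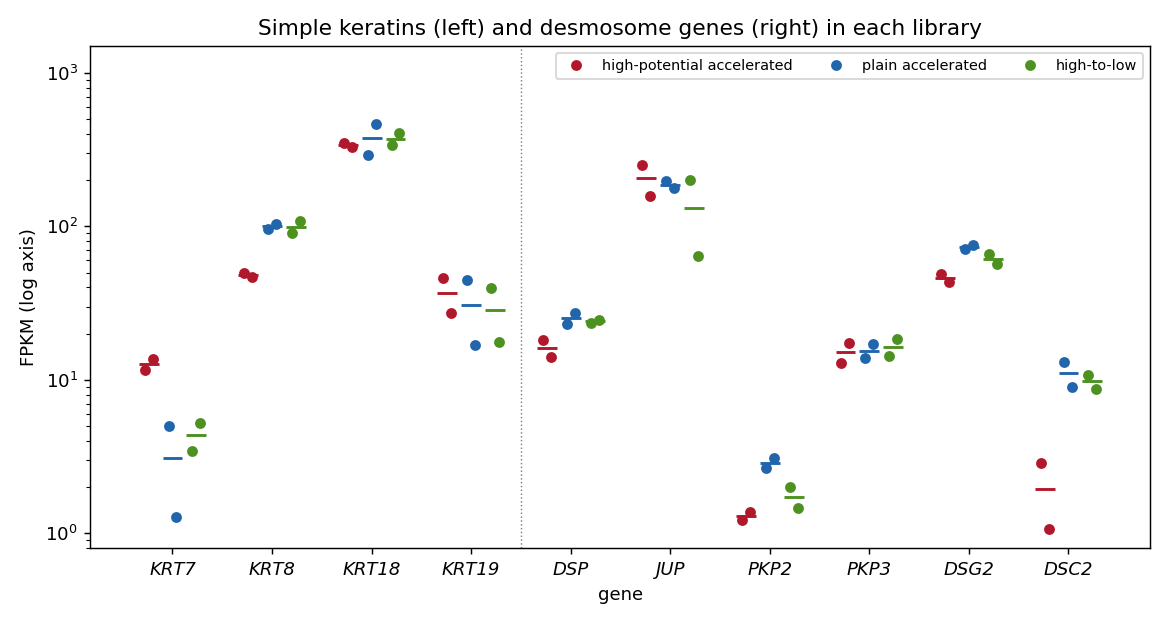
FPKM of each member (log axis) in each library; points are libraries, horizontal bars are group means, and colours are the 3 groups. KRT8 sits at 47.1 to 49.4 FPKM in the high-potential libraries and at 90.6 to 107.7 in the other 4, and DSC2 is at most 2.86 against at least 8.72.

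KRT8, the type II partner of KRT18, was 49.4 and 47.1 FPKM in the high-potential group, 96.9 and 104.1 in the plain accelerated group and 90.6 and 107.7 in the high-to-low group. The high-potential values were the lowest, close together and far from the rest, while the other groups overlapped. The mean of 48.2 ± 1.62 FPKM (SD, n = 2) compares with 100.5 ± 5.06 (n = 2) and 99.2 ± 12.1 (n = 2). The log2 difference of the high-potential group came to -1.04 (SE 0.181, limma adjusted p = 0.0863) against plain accelerated and -1.02 (SE 0.181, limma adjusted p = 0.0730) against high-to-low. Between plain accelerated and high-to-low cells it was 0.02 with a 95% interval of -0.41 to 0.46.

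KRT18, the type I partner, was 350.0 and 331.4 FPKM in the high-potential group, 290.6 and 464.4 in the plain accelerated group and 337.5 and 408.6 in the high-to-low group. It ranked first among the 10 members in every library, and 98.7% of all tested genes had a lower mean. The plain accelerated values spanned those of the other 4 libraries, so the groups overlapped. The log2 difference of the high-potential group was -0.11 against plain accelerated (95% interval -0.78 to 0.56) and -0.12 against high-to-low (-0.79 to 0.54). A change of the size seen for KRT8 lies outside both intervals. The sign of the difference between plain accelerated and high-to-low cells (-0.02) turned under 2 other scalings, to 0.15 with quantile normalization and 0.079 without small RNA genes.

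KRT7, a type II keratin of glandular epithelium, was 11.6 and 13.7 FPKM in the high-potential group, 4.97 and 1.27 in the plain accelerated group and 3.46 and 5.27 in the high-to-low group. The lowest value, in plain accelerated replicate 2, rests on about 20 fragments. Both high-potential libraries were above the other 4, which overlapped between their groups. Its log2 difference came to 1.88 (SE 0.465, limma adjusted p = 0.158) against plain accelerated and 1.36 (SE 0.465, limma adjusted p = 0.204) against high-to-low. Without plain accelerated replicate 2 the first was 1.18, and without replicate 1 it was 2.58.

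KRT19, the smallest keratin, was 46.1 and 27.1 FPKM in the high-potential group, 44.6 and 16.9 in the plain accelerated group and 39.7 and 17.7 in the high-to-low group. In each group the library numbered 1 was higher, and the spread within a group was wider than any difference between group means (36.6, 30.8 and 28.7 FPKM). The 3 groups overlapped. The log2 difference of the high-potential group was 0.35 against plain accelerated (95% interval -1.01 to 1.71) and 0.40 against high-to-low (-0.96 to 1.76).

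Among the desmosomal cadherins, DSC2 had the widest log2 span of any member, at 2.78 over the 6 libraries. Its level was 2.86 and 1.06 FPKM in the high-potential group, 13.1 and 8.92 in the plain accelerated group and 10.8 and 8.72 in the high-to-low group. Both high-potential libraries were below the other 4, whose groups overlapped. The mean was 1.96 ± 1.27 FPKM (SD, n = 2) against 11.02 ± 2.96 and 9.76 ± 1.47. Its log2 difference came to -2.07 (SE 0.360, limma adjusted p = 0.0863) against plain accelerated and -1.93 (SE 0.360, limma adjusted p = 0.0787) against high-to-low. The first passed with a term for the prefix of the label code (limma adjusted p = 0.0272); over all settings run its adjusted p was 0.0173, with the replicate block, to 0.405.

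DSG2, the desmoglein of simple epithelia, was 48.7 and 43.3 FPKM in the high-potential group, 71.3 and 75.2 in the plain accelerated group and 66.3 and 57.0 in the high-to-low group. The 3 groups did not overlap, in the order plain accelerated, high-to-low, high-potential. Its log2 difference came to -0.66 (SE 0.181, limma adjusted p = 0.184) against plain accelerated and -0.41 (SE 0.181, limma adjusted p = 0.297) against high-to-low. Plain accelerated was above high-to-low by 0.25 with a 95% interval of -0.19 to 0.69.

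In the plaque, desmoplakin (DSP) was 18.1 and 14.1 FPKM in the high-potential group, 23.3 and 27.4 in the plain accelerated group and 23.5 and 24.7 in the high-to-low group. The high-potential libraries were the lowest, and the other groups overlapped. Its log2 difference came to -0.63 (SE 0.206, limma adjusted p = 0.247) against plain accelerated and -0.56 (SE 0.206, limma adjusted p = 0.231) against high-to-low.

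JUP, which encodes plakoglobin, was 252.1 and 159.0 FPKM in the high-potential group, 196.6 and 177.3 in the plain accelerated group and 200.8 and 63.9 in the high-to-low group. It was the most abundant desmosome gene in every library, and high-to-low replicate 2 stood below the other 5, which overlapped. The group means (205.5, 187.0 and 132.3 FPKM) did not differ beyond this spread. The log2 difference of the high-potential group from high-to-low was 0.81 (95% interval -0.46 to 2.09), and without high-to-low replicate 2 it was -0.0037.

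The plakophilins differed in level and in pattern. PKP2 was the lower of the pair at 1.22 and 1.37 FPKM in the high-potential group, 2.67 and 3.12 in the plain accelerated group and 2.003 and 1.47 in the high-to-low group. These values rest on about 48 to 123 fragments. The 3 groups did not overlap, although high-to-low replicate 2 was close to high-potential replicate 2. The log2 difference of the high-potential group was -0.76 (SE 0.236, limma adjusted p = 0.220) against plain accelerated and -0.25 (SE 0.236, limma adjusted p = 0.631) against high-to-low. PKP3 was 12.8 and 17.4, 13.8 and 17.2, and 14.4 and 18.6 FPKM in the same order of groups, and the groups overlapped throughout. Its log2 difference from plain accelerated was -0.04 (95% interval -0.64 to 0.56), a sign that turned to 0.0023 with quantile normalization.

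**Figure D2:**
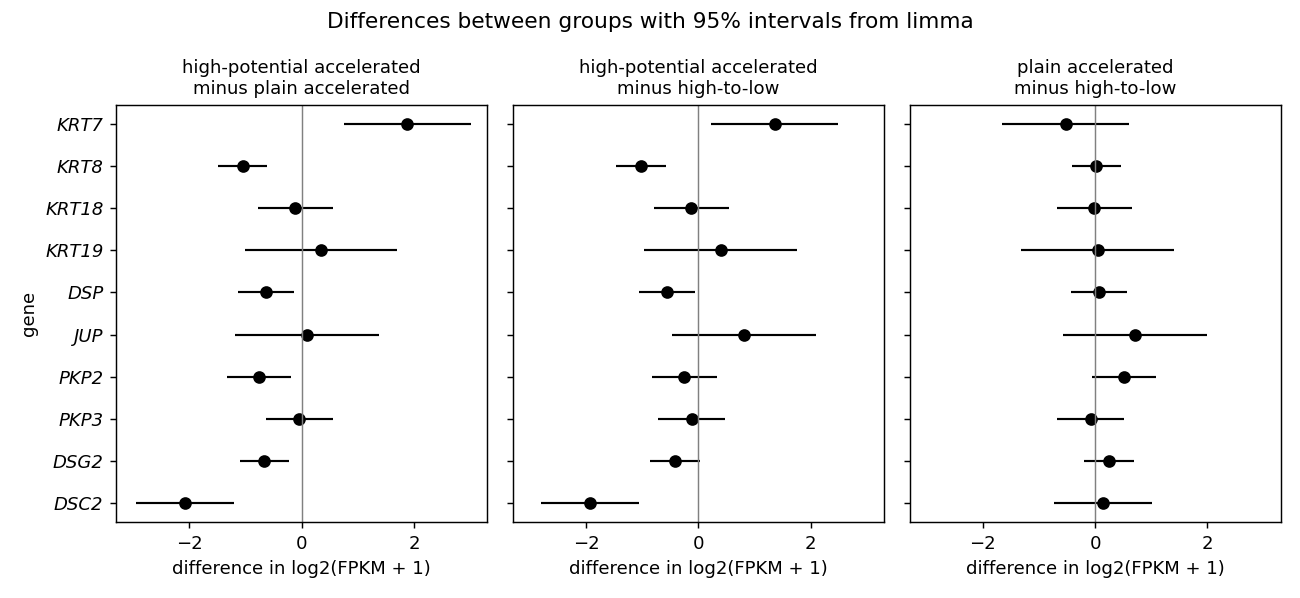
Log2 differences of each member between groups (points) with 95% intervals from limma (lines, not adjusted for the number of genes). In the left and middle panels KRT7 lies above 0 and KRT8, DSP and DSC2 below it, and in the right panel every interval spans 0.

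After these values were seen, the high-potential group was also set against the mean of both other groups, since the interval between those spanned 0 for each member. With 2 libraries a group such intervals are wide (-1.31 to 1.41 for KRT19) and do not show the 2 groups to be alike. PKP2 and DSG2 did not overlap between them. In that comparison 2 of 10 members passed, both lower in the high-potential cells, where 2.30% of all genes passed in either direction and 1.37% passed as lower. KRT8 fell by 1.03 in log2 units (SE 0.157) with a limma adjusted p of 0.0385, and its mean FPKM was 2.07-fold lower. DSC2 fell by 1.997 (SE 0.311, limma adjusted p = 0.0407), and its mean FPKM was 5.30-fold lower. KRT7 was higher by 1.62 (SE 0.403, limma adjusted p = 0.0960), DSG2 had a difference of -0.54 (limma adjusted p = 0.135) and DSP one of -0.59 (limma adjusted p = 0.143). With the replicate block DSG2 passed as well (limma adjusted p = 0.0468), making 3 of 10 members where 11.1% of all genes passed. Neither of the KRT8 and DSC2 calls was kept when any 1 of the 6 libraries was left out, while over all settings run the log2 difference stayed between -1.09 and -0.97 for KRT8 and between -2.48 and -1.54 for DSC2. Without plain accelerated replicate 1, KRT7 passed instead (limma adjusted p = 0.0458). Over all settings run the adjusted p was 0.0113 to 0.274 for KRT8 and 0.00799 to 0.267 for DSC2.

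Counted by library, 5 of 10 members (KRT8, DSP, PKP2, DSG2 and DSC2) were lower in both high-potential libraries than in all other 4, as were 17.5% of all tested genes. KRT7 (1 of 10) was higher in both, as were 15.3% of all genes. Between plain accelerated and high-to-low libraries 2 of 10 members did not overlap (PKP2 and DSG2, both higher in plain accelerated), a share near the 24.1% of all genes. Of the 10, 0 separated the 4 accelerated libraries from the high-to-low libraries, against 13% of all genes.

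The number that ends each label description starts with 17 in 4 libraries and with 18 in high-potential replicate 2 and plain accelerated replicate 2; what it stands for is not stated. Within each prefix the high-potential library was below its plain accelerated partner for KRT8 (log2 differences -0.96 and -1.13), DSC2 (-1.87 and -2.27), DSG2 (-0.54 and -0.78), DSP (-0.34 and -0.91) and PKP2 (-0.73 and -0.80), and above it for KRT7 (1.07 and 2.69). KRT18 (0.27 and -0.49), JUP (0.36 and -0.16) and PKP3 (-0.10 and 0.02) changed sign between the prefixes, and KRT19 was 0.04 and 0.65. The high-to-low libraries all carry prefix 17. Within it, high-potential replicate 1 differed from their mean by -0.99 for KRT8, -1.47 for DSC2 and 1.25 for KRT7.

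Ratios within a library do not depend on the scaling between libraries. KRT18 exceeded KRT8 by 7.09 and 7.04 times in the high-potential group, 2.998 and 4.46 times in the plain accelerated group and 3.73 and 3.79 times in the high-to-low group. The high-potential values were nearly equal and above all others; this ratio was chosen after its parts were seen. The summed type II keratins KRT7 and KRT8 stood to the summed type I keratins KRT18 and KRT19 as 0.154 and 0.169 in the high-potential group, 0.304 and 0.219 in the plain accelerated group and 0.249 and 0.265 in the high-to-low group. Among these member keratins type I transcripts thus exceeded type II transcripts in every library, and the high-potential libraries held the lowest ratios. The other expressed keratins, type I KRT10 and type II KRT80 and KRT81, are not part of this ratio, so it does not describe all keratins. DSG2 exceeded DSC2 by 17.02 and 40.9 times in the high-potential libraries and by 5.44 to 8.43 times in the other 4. PKP3 exceeded PKP2 by 10.5 and 12.7 times in the high-potential group, 5.18 and 5.50 times in the plain accelerated group and 7.16 and 12.6 times in the high-to-low group, so the high-potential and high-to-low groups overlapped there. These ratios were not tested.

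**Figure D3:**
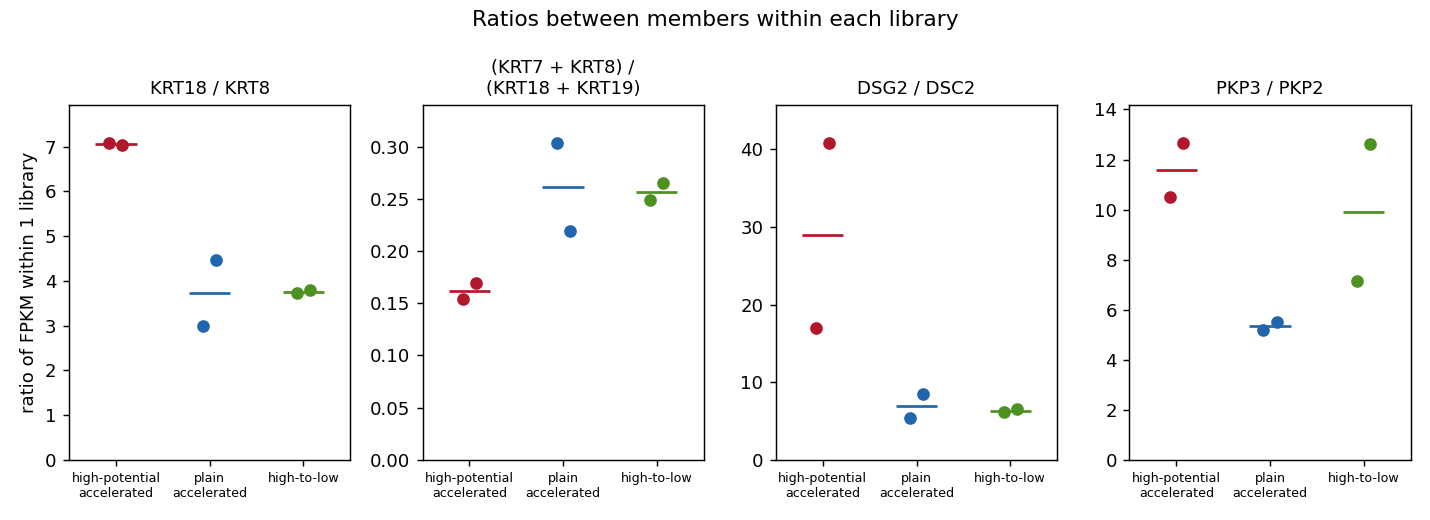
Ratios of FPKM between members within each library; points are libraries, bars are group means, and each vertical axis starts at 0. KRT18 to KRT8 is 7.04 and 7.09 in the high-potential libraries and at most 4.46 elsewhere, and DSG2 to DSC2 is at least 17.02 there and at most 8.43 elsewhere.

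The sum of the 4 keratins was 456.9 and 419.2 FPKM in the high-potential group, 437.2 and 586.7 in the plain accelerated group and 471.3 and 539.3 in the high-to-low group, of which KRT18 made up 66.5 to 79.2%. The sum of the 6 desmosome genes was 335.8 and 236.3, 320.8 and 309.2, and 317.8 and 174.4 FPKM in the same order. Both sums overlapped between the groups. The median log2 difference of the 6 desmosome genes was -0.64 against plain accelerated and -0.33 against high-to-low, where the median of all genes tested was 0.00 and -0.01. For the 4 keratins the medians were 0.12 and 0.14.

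Copies and neighbours limit some of these values. KRT8 and KRT18 have processed pseudogenes with near-identical sequence, and how such reads were split in counting is not stated. The listed copies were low: KRT8P41 reached 1.98 FPKM and KRT18P55 reached 1.93, while KRT19P2 was above 0 in 1 library at 0.248. The annotated spans of KRT8 and KRT18 overlap in RefSeq (GRCh38.p14), and strand is lost in library preparation, so fragments from an overlap cannot be assigned to either gene. No antisense gene named after a member was listed.

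The other keratins were few. Of 26 listed, 22 stayed below 1 FPKM in all libraries and 12 were at 0 in all, and 3 were tested. Of the 3, 0 were called by limma between groups of 2 libraries, and 2 (KRT80 and KRT81) had an unadjusted p under 0.05 against plain accelerated, as did 14.3% of all genes. With the replicate block KRT80 and KRT81 passed there (limma adjusted p = 0.0298 and 0.0361) and against high-to-low (limma adjusted p = 0.0280 and 0.0356). Those are 2 of 3 in each comparison, where the block fit called 4.5% and 7.78% of all genes. KRT81, a hair keratin gene, was 4.22 and 3.24 FPKM in the high-potential group and 0 to 0.857 in the other 4. It passed the filter only through the high-potential group. Against both other groups together KRT81 rose by 1.87 (SE 0.298, limma adjusted p = 0.0424). That is 1 of the 3 tested, where 2.30% of all genes passed. KRT81 shares much of its sequence with KRT83 and KRT86, so its value is uncertain; KRT86 was 0.212 to 0.676 FPKM. KRT80, a type II keratin of differentiating epithelia, was 15.1 and 23.3 FPKM against 3.02 to 8.10 in the other 4 libraries (log2 difference 1.80, limma adjusted p = 0.0639). KRT10, a type I keratin of stratified epithelia, was 36.9 to 54.3 FPKM (0.29, limma adjusted p = 0.352).

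Of 11 other desmosome genes 4 were tested and 0 were called by limma in any comparison; 1 of 4 (EVPL) had an unadjusted p under 0.05 between the high-potential cells and both other groups, a share near the 19.9% of all genes. With the replicate block 0 of the 4 were called in any comparison. The squamous forms DSG1, DSG3, DSG4, DSC1, DSC3 and PKP1 stayed below 1 FPKM. PERP, a membrane protein of desmosomes, was 58.8 and 22.9 FPKM in the high-potential group and 17.6 to 27.0 in the others. PKP4, a p120-related plakophilin, was 10.96 to 18.1 FPKM, with overlap between groups. Of the plakins, EVPL was 3.32 and 2.86 against 4.31 to 8.02 FPKM in the other 4 (log2 difference -0.75 from both other groups, limma adjusted p = 0.143), and PPL was 3.75 to 11.4 FPKM with overlap. The median difference of these 4 genes was -0.29 against both other groups together, where the median of all genes tested was 0.00.

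Among adherens junction genes, 1 of 7 tested was called by limma. CDH2, the N-cadherin gene, was 2.01 and 1.14 FPKM in the high-potential group, 20.8 and 32.3 in the plain accelerated group and 19.5 and 12.99 in the high-to-low group. It fell by 3.41 (limma adjusted p = 0.0167) against plain accelerated and by 2.74 (limma adjusted p = 0.0334) against high-to-low. In those comparisons 0.494% and 0.799% of all genes passed. CTNNB1, beta-catenin and the closest relative of plakoglobin, was 185.2 and 200.4 against 271.4 to 324.5 FPKM in the other 4 (-0.62 from both other groups, limma adjusted p = 0.121). CTNNA1, alpha-catenin, was 111.3 to 134.3 FPKM and VCL, vinculin, 28.6 to 55.6. PVRL2, a nectin, was 116.8 and 118.7 against 46.6 to 67.8 FPKM (0.99, limma adjusted p = 0.0582). With the replicate block CTNNB1 and PVRL2 also passed against both other groups (limma adjusted p = 0.0257 and 0.0211), where 11.1% of all genes did.

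Of 13 other intermediate filament genes 6 were tested and 0 called by limma, with 3 of 6 (DES, LMNA and VIM) at an unadjusted p under 0.05 between the high-potential cells and both other groups, against 19.9% of all genes. The same 3 of 6 were called there with the replicate block (limma adjusted p = 0.0464, 0.0286 and 0.0230). That fit called 11.1% of all genes. DES was higher in the high-potential group, at 1.83 and 2.43 FPKM against 0.144 to 1.08 in the other 4, and LMNA and VIM were lower. DES passed the filter only with the high-potential libraries, since of the others plain accelerated replicate 2 alone reached 1 FPKM. Vimentin (VIM), the filament of mesenchymal cells, was 86.0 and 77.4 FPKM in the high-potential group and 141.2 to 220.5 in the other 4 (log2 difference -1.06, limma adjusted p = 0.0720). The lamin LMNA was 76.6 and 71.3 against 99.96 to 128.3 FPKM (-0.62, limma adjusted p = 0.0910), whereas LMNB1 (25.0 to 54.1) and LMNB2 (29.6 to 42.7) overlapped. Of 16 genes for keratin linkers, hemidesmosomes and keratin chaperones, 14 were tested and 0 called by limma, with 5 of 14 (EPPK1, HSPB1, ITGA6, STUB1 and TRADD) at an unadjusted p under 0.05 in that comparison, against 19.9% of all genes. With the replicate block EPPK1, STUB1 and TRADD were called in it (limma adjusted p = 0.0421, 0.0285 and 0.0359). CD151 was 101.8 to 134.8, DNAJB6 41.9 to 56.4, HSPB1 41.3 to 78.6 and STUB1 39.6 to 79.8 FPKM.

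**Figure D4:**
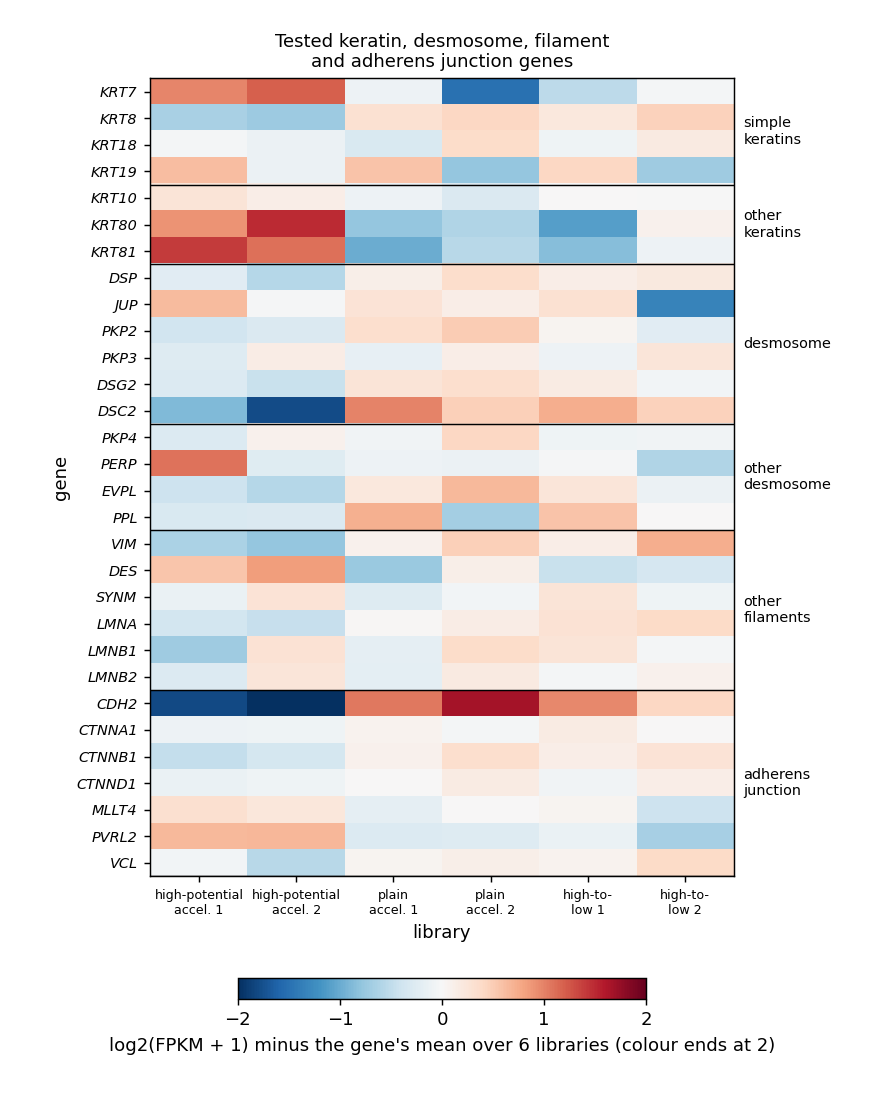
Heat map of log2(FPKM + 1) minus each gene's mean over the 6 libraries, for the tested keratin, desmosome, other filament and adherens junction genes; columns are libraries and colour ends at 2. The high-potential columns are low for KRT8, DSC2 and CDH2 and high for KRT7, KRT80 and KRT81.

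Of 20 transcriptional regulators of epithelial state, 11 were tested and 0 called by limma in any comparison, with 3 of 11 (ELF3, ESRP2 and TFAP2C) at an unadjusted p under 0.05 between the high-potential cells and both other groups, a share near the 19.9% of all genes. With the replicate block ELF3, higher in the high-potential group, and ESRP2, lower in it, were called there (limma adjusted p = 0.0403 and 0.0228). Those are 2 of 11, where that fit called 11.1% of all genes. ESRP2 was 2.98 and 4.50 FPKM in the high-potential group and 5.77 to 14.0 in the other 4. TFAP2C passed the filter only with the high-potential libraries, since of the others plain accelerated replicate 2 alone reached 1 FPKM. ELF3, an epithelial ETS factor, was 17.4 and 30.4 FPKM in the high-potential group and 3.22 to 9.05 in the other 4 (log2 difference 1.85, limma adjusted p = 0.0788). ZEB1, a repressor of epithelial genes, was 7.27 to 12.2, KLF5 6.87 to 13.1 and TFAP2A 3.26 to 12.9 FPKM, and GRHL2 and EHF were listed at 0 in all libraries.

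For the members whose log2(FPKM + 1) spanned more than 1, the genes of most similar pattern were taken by the mean absolute difference over the 6 libraries after centring. This compares 12135 genes over 6 points that share libraries and scaling, so close matches exist for any gene, and nothing follows about function. For KRT8 they were FHOD1 (0.0305), BCL2L13 (0.0618) and CNOT10 (0.0698). For DSC2 they were ITGA1 (0.108), SEPT6 (0.122) and NTN4 (0.129), each lower in both high-potential libraries. For KRT7 they were CXCL1 (0.131), NRP1 (0.152) and UNC13D (0.190). For KRT19 they were PNRC1 (0.0833), KIFC2 (0.0854) and SOX4 (0.106), which were also higher in the library numbered 1 of each group. For JUP they were SLC25A27 (0.104), TCEA2 (0.106) and GRIP1 (0.132), all lowest in high-to-low replicate 2.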

How the data were processed

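Gene expression was measured by RNA-seq in 6 HEC-1B libraries; per the labels' protocols cDNA was made with a SMART-Seq v4 kit and libraries with a Nextera kit. The authors deposited 1 FPKM value per gene symbol and library. The submitters' processing notes name TopHat2 2.0.13, Cuffnorm 2.2.1 and build hg19; the annotation and the scaling of libraries are not stated there. The 12135 genes that reached 1 FPKM in 2 or more libraries were transformed to log2(FPKM + 1), a scale that understates changes of low genes. They were fitted with limma 3.58.1 in R 4.3.3 over all 6 libraries (variance trend, 3 residual degrees of freedom), with Benjamini-Hochberg adjustment over all genes, two-sided, and a threshold of 0.05; the fit was tested on simulated data.

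Members, lists and naming rules were chosen with earlier results of these data known. All members are named; of each list, called genes and the 4 of highest mean; and for members spanning over 1 on the log2 scale the 3 genes of most similar pattern. Depth was read from genes under 0.3 FPKM whose ratio between libraries recurred within 3%, fragments from single-transcript genes and the longest coding transcript in GENCODE. Alternatives changed pseudocount, filter, scaling, variance model, samples and covariates, and left out each library. The labels number the replicates alike in each group without saying what the numbers share. Deviations of same-numbered libraries from their group means correlated across genes at 0.187, 0.158 and 0.281 for the 3 group pairs, so a fit with the number as a block is given where it changes a call. The contrast with both other groups was added after the data were seen.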

Additional observations from a re-analysis of the deposited data

How the results depend on the processing

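The members called stayed at 0 between the high-potential and plain accelerated groups except with a replicate block (2: KRT8 and DSC2) and with the code prefix term (1: DSC2), and at 0 against high-to-low except with the replicate block (2: the same genes). They were 0 under every setting run for plain accelerated against high-to-low and for the mean of both accelerated groups against high-to-low. Against both other groups together they were 2, with 1 at a pseudocount of 0.1 and without a filter (KRT8 each time; DSC2 then had limma adjusted p of 0.0532 and 0.0771), 3 with the replicate block (DSG2 as well) and 0 to 1 without 1 library. Without 1 library the counts were 0 in the other comparisons. The replicate block changed no other member's call. In each group KRT19, JUP and DSC2 were higher, and PKP3 lower, in the library numbered 1.

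Genes called in all moved as follows. Between the high-potential and plain accelerated groups (60) they were 31 at a pseudocount of 0.1, 38 without a filter, 39 with only the groups compared, 546 with the replicate block, 105 with the code prefix term and 14 to 38 without 1 library. For high-potential against high-to-low (97) they were 54, 39 without a filter, 944 with the block, 54 with the code prefix and 13 to 115 without 1 library. For plain accelerated against high-to-low (2; 118 at an unadjusted p under 0.05) they were 4 at a pseudocount of 0.1, 0 without small RNA genes (139 unadjusted), 7 with only the groups compared, 7 with the code prefix and 4 to 7 without 1 library. For both accelerated groups against high-to-low (8) they were 3 without a filter, 1 without small RNA genes, 17 with the block, 15 with the code prefix and 3 to 15 without 1 library. Against both other groups together (279) they were 164 at a pseudocount of 0.1, 1346 with the block and 14 to 200 without 1 library. The cause was not tested.

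Signs of small differences turned under other scalings: for PKP3 between the high-potential and plain accelerated groups to 0.0023 with quantile normalization; for plain accelerated against high-to-low, KRT18 to 0.15 with quantile normalization and 0.079 without small RNA genes, and PKP3 to 0.010 without them; for both accelerated groups against high-to-low, KRT18 to 0.066 and 0.0080 in the same order. Leaving out 1 library gave these ranges. High-potential minus plain accelerated: KRT18 -0.45 to 0.23, KRT19 -0.33 to 1.02, JUP -0.23 to 0.43, PKP3 -0.25 to 0.17. High-potential minus high-to-low: KRT18 -0.26 to 0.013, KRT19 -0.16 to 0.96, JUP -0.0037 to 1.63, PKP3 -0.33 to 0.087. Plain accelerated minus high-to-low: KRT7 -1.22 to 0.18, KRT8 -0.10 to 0.15, KRT18 -0.35 to 0.32, KRT19 -0.62 to 0.73, DSP -0.050 to 0.18, JUP -0.10 to 1.53, PKP3 -0.25 to 0.10, DSC2 -0.11 to 0.40. Both accelerated groups minus high-to-low: KRT18 -0.24 to 0.10, KRT19 -0.34 to 0.79, JUP -0.054 to 1.58, PKP2 -0.0074 to 0.27, PKP3 -0.27 to 0.076, DSG2 -0.19 to 0.025. High-potential minus both other groups: KRT18 -0.29 to 0.052, PKP3 -0.29 to 0.13. Where 1 library remained in a group, it was assumed to vary like the others.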
